A study of Saccharomyces cerevisiae with 18 samples.

Results

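ORFs a short way inside the ends of the 32 chromosome arms of budding yeast, Saccharomyces cerevisiae, were examined in strains lacking DOT4, UBP8 or both. A systematic ORF name gives the chromosome, the arm and a number that counts outward from the centromere, so the highest number on an arm lies nearest its end. The distinct numbers on each arm were ranked from the highest down, and the ORFs of ranks 6 to 15 were taken. They were 332 of the 6205 ORFs in the deposited table, with 10 to 13 on each arm, since ORFs that carry the same number share a rank. The rule itself uses no measured value, but it was chosen with earlier results of these data known. A rank is an order among names, not a distance in bases. Of the 332 ORFs, 303 were matched to a gene of the RefSeq table for the R64 assembly, and the other 29 keep their systematic names. Families of closely related copies, such as the hexose transporters and the seripauperins, supplied 47 of the 332. Transcripts of such copies may bind each other's probes, so the value of a single copy is uncertain. The families were recognised by gene symbol. Repeated ORFs without such a symbol, among them those of transposable elements, count as outside the families.

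The arrays compared total RNA of null strains with total RNA of the wild type strain UCC6389, after growth in YEPD, a rich glucose medium. The strains were UCC6390 (dot4 null), UCC6392 (ubp8 null) and UCC6393 (dot4ubp8 null, called the double null here), and 1 of the double null arrays carries the number UCC6392 in its label. Each genotype had 6 arrays in 3 numbered sets, and the 2 arrays of a set held the mutant RNA in opposite channels. The labels do not say whether sets came from separate cultures, so a p-value below measures spread among set means that may be technical only. The 2 arrays of a set were averaged first, so a difference between the channels that recurs in each set does not enter the p-value. The wild type strain is shared by all 3 comparisons, so a deviation of its RNA common to the arrays would move all genotypes the same way. Whether there was such a deviation was not tested.

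Values below are log2, null strain over wild type, on arrays whose median over all ORFs was set to 0, so a value of 0 is the level of the median ORF and not an absolute level. The deposited values were read as channel 2 over channel 1, because DOT4 and UBP8 are then low in the strains that lack them on every array. The word order of the dyes in the labels, taken literally, would turn every sign given here. Channel 2 arrays and channel 1 arrays are those that held the mutant RNA in that channel. The 2 arrays of a set were averaged, and the 3 set means of a genotype were the replicates. A value after ± is limma's standard error of a genotype mean of 3 set means, or of a contrast of such means, unless it is called SD. It rests on a spread per ORF that the 3 genotypes share, so it does not show the spread within any genotype. An ORF was called higher or lower at an adjusted p under 0.05, adjusted by Benjamini and Hochberg over all 6205 ORFs. Ratios do not show whether an ORF was expressed at all, and fewer expressing cells cannot be told apart from less RNA per cell.

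DOT4, also named UBP10, and UBP8 code for ubiquitin proteases that remove ubiquitin from histone H2B. Ubp8 works as a subunit of SAGA, a coactivator complex that acts at promoters, and Ubp10 is known for its part in silencing near telomeres and at the silent mating loci. Silencing at chromosome ends rests on the Sir proteins, which bind deacetylated histone tails and spread inward from the telomere. The stretch just inside the ends is known for gene families that yeast uses only under some conditions, for alternative sugars, vitamins, metals and cell surface adhesion.

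DOT4, listed as UBP10, was at -5.06 ± 0.083 in dot4 null cells and -4.70 ± 0.083 in double null cells, and UBP8 was at -2.94 ± 0.092 in ubp8 null cells and -2.94 ± 0.092 in double null cells. The deposited array medians ran from -0.177 to 0.304 before centring. The median standard error was 0.037 for the ORFs of ranks 6 to 15 and 0.034 for all ORFs.

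The ORFs of ranks 6 to 15 lay above those of rank above 30 in each genotype, most in double null cells, and below those of ranks 1 to 5. Their median exceeded that of the 5218 ORFs of rank above 30 by 0.064 ± 0.0096 (SD, n = 3 sets) in dot4 null cells, by 0.058 ± 0.015 in ubp8 null cells and by 0.154 ± 0.012 in double null cells. The difference was above 0 on all 6 arrays of each genotype. These shifts are small beside the spread among the ORFs themselves, whose SD was 0.363, 0.238 and 0.466 in the same order. No p is given for a median over these ORFs.

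The shift declined inward. Ranks 6 to 10 lay 0.087 ± 0.0060 (SD) above ranks above 30 in dot4 null cells, 0.083 ± 0.013 in ubp8 null cells and 0.214 ± 0.015 in double null cells, against 0.036 ± 0.018, 0.034 ± 0.020 and 0.092 ± 0.018 for ranks 11 to 15. Outside these limits, ranks 1 to 5 lay at 0.327 ± 0.011, 0.106 ± 0.051 and 0.413 ± 0.035, and ranks 16 to 20 at 0.013 ± 0.013, -0.0083 ± 0.013 and 0.0018 ± 0.0063. The dot4 null strain had its largest shift at ranks 1 to 5, whereas in ubp8 null cells the values of ranks 1 to 5 and of ranks 6 to 10 differed by less than the SD between sets at ranks 1 to 5.

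At the edges of the window, the ORFs of rank 6 had a median of 0.152 in dot4 null cells, 0.157 in ubp8 null cells and 0.369 in double null cells, and those of rank 5 had 0.211, 0.093 and 0.365. The ORFs of rank 15 had 0.020, 0.0040 and 0.013, and those of rank 16 had -0.0082, 0.034 and 0.058. The medians of dot4 null cells did not fall evenly: the set medians of rank 10 were below 0 in all 3 sets, at -0.0053, -0.031 and -0.059, while those of rank 13 were 0.092, 0.075 and 0.077. Every rank from 6 to 15 had all 3 set medians above 0 in double null cells.

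**Figure D1:**
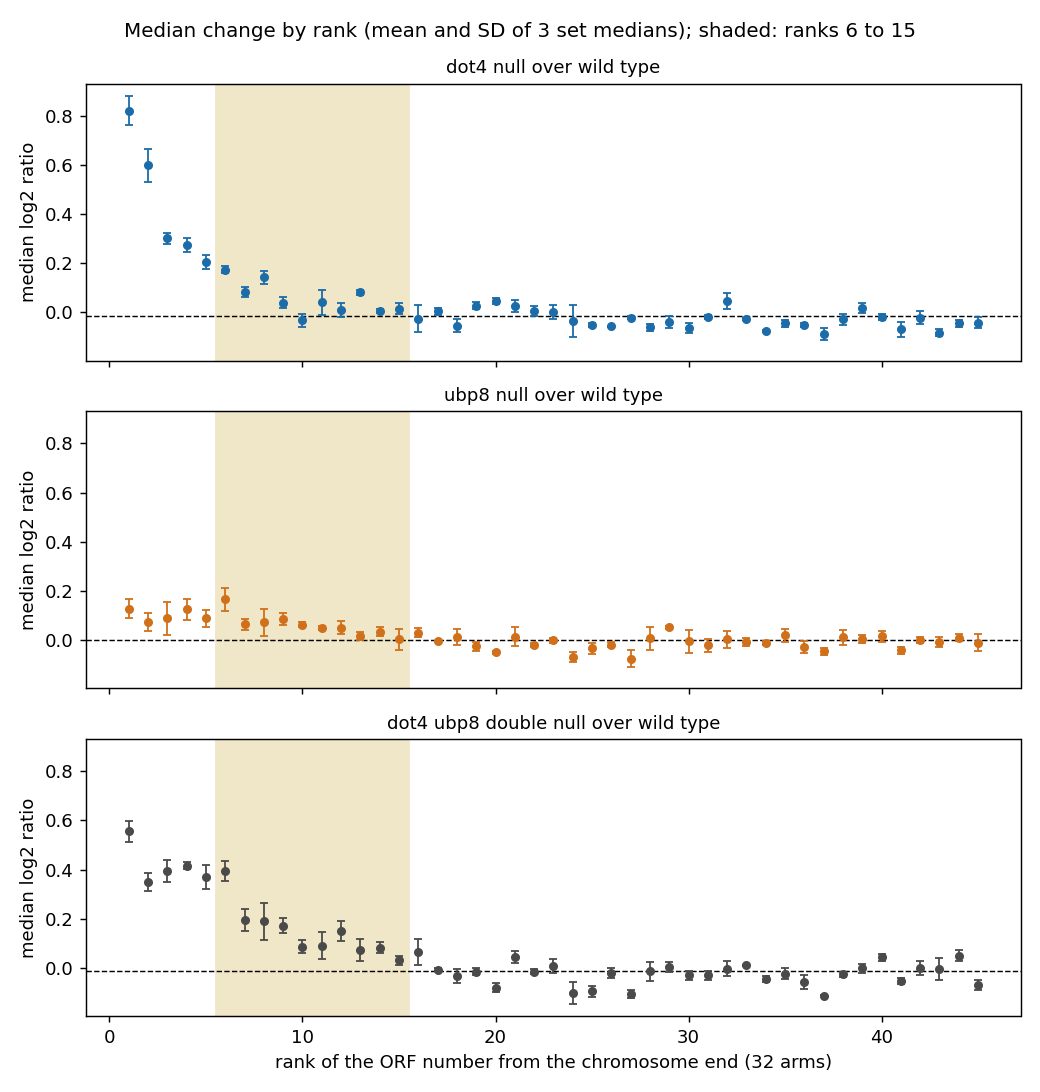
Median log2 ratio of null over wild type at each rank from the chromosome end, as the mean and SD of 3 set medians in each genotype, with ranks 6 to 15 shaded and the median of ranks above 30 dashed. The points of double null cells fall from 0.394 at rank 6 to 0.032 at rank 15.

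The orientation of the arrays moved with this shift. In dot4 null cells the ORFs of ranks 6 to 15 lay 0.094, 0.129 and 0.112 above ranks above 30 on arrays with the mutant RNA in channel 1, and 0.047, 0.013 and 0.012 above them on arrays with it in channel 2. The ubp8 null values were 0.121, 0.143 and 0.086, and 0.049, 0.031 and 0.010. The double null strain differed less, with 0.144, 0.171 and 0.150, and 0.142, 0.131 and 0.102. For the 285 ORFs outside repeated families the dot4 null shift with the mutant RNA in channel 2 was 0.0020, -0.021 and -0.027, beside 0.057, 0.108 and 0.075 with it in channel 1. In ubp8 null cells the same ORFs were at 0.024, 0.0090 and -0.0010 in channel 2 and 0.086, 0.097 and 0.053 in channel 1, and in double null cells at 0.093, 0.085 and 0.074, and 0.109, 0.113 and 0.092. Outside the families the shift of both single nulls was thus near or below 0 in 1 orientation. Each genotype mean holds 3 arrays in each orientation.

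Most called ORFs kept their sign in both orientations. Of the called ORFs of ranks 6 to 15, 179 of 223 in dot4 null cells, 187 of 211 in ubp8 null cells and 255 of 264 in double null cells had the same sign in both orientations. These shares of 80.3%, 88.6% and 96.6% stood beside 80.5%, 90.8% and 94.6% for called ORFs of rank above 30. Of the calls of at least 1.5-fold, 23 of 23, 7 of 7 and 57 of 58 had the same sign.

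The 47 ORFs of repeated families carried a larger shift than the other 285. They lay 0.223 ± 0.034 (SD) above ranks above 30 in dot4 null cells, 0.269 ± 0.043 in ubp8 null cells and 0.559 ± 0.027 in double null cells, against 0.033 ± 0.0079, 0.038 ± 0.016 and 0.103 ± 0.015 for the others. The 39 ORFs at ranks above 30 whose symbols met the same family rule lay at -0.0068 ± 0.031, 0.037 ± 0.043 and 0.034 ± 0.025. They were not matched family by family to the 47. The direction of reading showed no such split, since ORFs read toward the chromosome end had shifts of 0.065, 0.067 and 0.152 and those read away from it 0.060, 0.052 and 0.152.

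**Figure D2:**
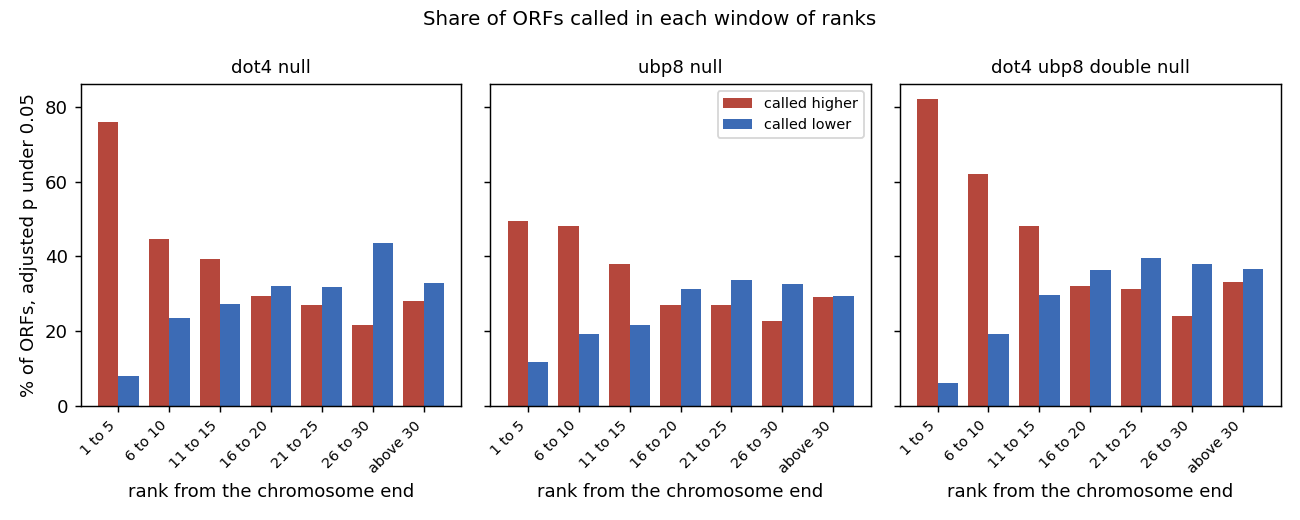
Share of ORFs called higher and lower at an adjusted p under 0.05, in percent, in 7 windows of ranks from the chromosome end, for each genotype. In double null cells the share called higher is 82.1% at ranks 1 to 5, 62.0% at ranks 6 to 10, 48.2% at ranks 11 to 15 and 33.2% above rank 30.

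In dot4 null cells, 139 of the 332 ORFs were called higher, or 41.9% beside 29.9% of all ORFs tested, and 84 were called lower, or 25.3% beside 32.1%. Of these, 18 were at least 1.5-fold higher beside 1.84% of all ORFs, and 5 at least 1.5-fold lower beside 0.951%. ADH4 led the increases by a wide margin, followed by DDI3, PAU20, ZRT1, PAU4, HPF1, THI5, FIT3, THI12 and YJR149W. PHO89 led the decreases, followed by BAT2, URA1, FDC1 and SRY1. On all 6 arrays, 104 ORFs lay above 0 and 58 below, beside 21% and 21% of all ORFs in each direction. Without centring of the arrays, 145 ORFs were called higher and 33 lower. Leaving out centring moves 0 and also adds offsets that differ between sets, 0.159, 0.044 and 0.067 in this genotype. Which of these changed the counts was not tested.

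In ubp8 null cells, 143 ORFs were called higher and 68 lower, or 43.1% and 20.5%, beside 30% and 28.7% of all ORFs. Changes were smaller: 6 were at least 1.5-fold higher beside 0.419% of all ORFs, and 1, PHO89, at least 1.5-fold lower beside 0.338%. HSP31, YJL218W, SNZ2, YLR460C, THI5 and THI12 were the 6. On all 6 arrays 98 ORFs lay above 0 and 46 below, beside 19.7% and 20% of all ORFs. Without centring 72 were called higher and 33 lower, and with the mutant RNA in channel 2 alone 80 were called higher. The shares of all ORFs are those of the main fit, here and for each genotype and contrast. Counts under other settings therefore show no excess or lack beside all ORFs.

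In double null cells, 183 ORFs were called higher and 81 lower, or 55.1% and 24.4%, beside 35.3% and 35.2% of all ORFs. Increases of at least 1.5-fold numbered 48, beside 5.66% of all ORFs, and decreases of that size 10, beside 1.95%. The increases were led by ADH4, THI5, THI12, YJL218W, DDI3, FIT3, YLR460C, PAU20, PAU4 and DFP4, and the decreases by PHO89, BAT2 and URA1. On all 6 arrays 151 ORFs lay above 0 and 65 below, beside 27.8% and 27.9% of all ORFs.

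The increases were not spread evenly over the 32 arms. All 3 set medians of an arm's ORFs of ranks 6 to 15 were above 0 on 18 arms in dot4 null cells, 17 in ubp8 null cells and 25 in double null cells, and below 0 on 9, 4 and 5. At ranks 31 to 40 of the same arms the counts were 7, 11 and 8 above and 21, 14 and 14 below. The left arm of chromosome VI had the highest median of all arms in ubp8 null cells, at 0.43 ± 0.045 (SD, n = 3), and in double null cells, at 0.64 ± 0.036. The right arm of chromosome I was highest in dot4 null cells, at 0.30 ± 0.065. The lowest arms were the left arm of chromosome XI in dot4 null cells, at -0.14 ± 0.014, the right arm of II in ubp8 null cells, at -0.065 ± 0.025, and the left arm of XIII in double null cells, at -0.12 ± 0.047.

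**Figure D3:**
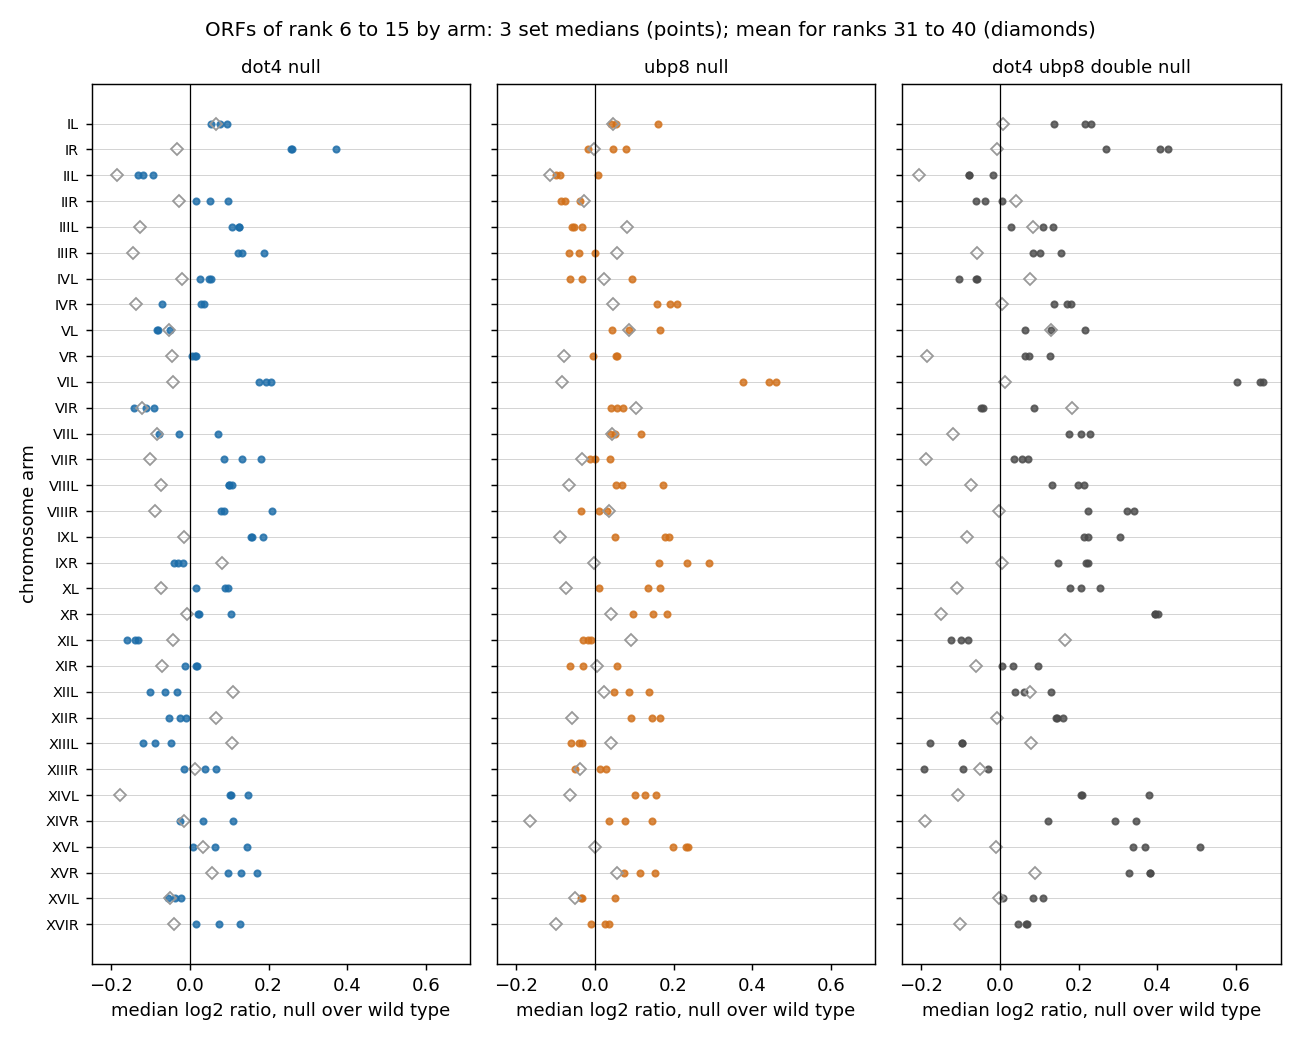
Median log2 ratio of the ORFs of ranks 6 to 15 on each chromosome arm, with a point for each of 3 sets, beside the mean for ranks 31 to 40 of the same arm (open diamonds; the shortest arm ends at rank 35). The left arm of VI stands at the right in ubp8 null cells and double null cells, with set medians of 0.602, 0.661 and 0.669 in double null cells.

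Neighbours moved together over long stretches on a few arms. A run was counted where at least 4 ranks in a row held only ORFs called the same way. In ranks 6 to 15 there were 6 runs of higher and 5 of lower ORFs in dot4 null cells, 7 and 1 in ubp8 null cells, and 14 and 3 in double null cells. Ranks 31 to 40 held 1 and 7, 1 and 1, and 4 and 9. The longest double null runs covered 10 ranks on the left arm of VI and 9 ranks on each of the right arms of I and X.

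On the left arm of VI the run begins with YFL063W and COS4 at ranks 6 and 7 and passes through DDI3, SNO3, SNZ3, THI5, YFL057C, AAD6 and AGP3 to AQY3 at rank 15. These 10 ORFs are given for their position, and those outside the naming rule were chosen after their values were seen. DDI3 codes for a cyanamide hydratase, SNO3 and SNZ3 for vitamin B6 enzymes, THI5 for an enzyme of thiamine precursor synthesis, AAD6 for a putative aryl alcohol dehydrogenase, AGP3 for an amino acid permease and AQY3 for a putative aquaporin. Their double null values ran from 0.20 for AAD6 to 1.62 for THI5. All 10 were called higher by the definition of a run, so that count is no further result. Of the 10 ORFs, 9 were called higher in dot4 null cells, with AGP3 at 0.032 ± 0.036 (adjusted p = 0.459) the exception. In ubp8 null cells 9 were called higher, with COS4 at -0.021 ± 0.036 (adjusted p = 0.638) the exception. The shares over all ORFs were 29.9% and 30%.

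The genotypes ordered the genes of this arm differently. In dot4 null cells DDI3 at 1.10 and THI5 at 0.83 stood far above SNZ3 at 0.15 and AAD6 at 0.12. In ubp8 null cells AAD6 at 0.57, SNZ3 at 0.57 and YFL057C at 0.51 were close to THI5 at 0.62. AAD6 differed between the single nulls by -0.45 ± 0.06 (adjusted p = 9.66e-05) and SNZ3 by -0.42 ± 0.037 (adjusted p = 6.42e-06), both lower in dot4 null cells, while DDI3 was higher there by 0.63 ± 0.071 (adjusted p = 3.23e-05).

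A second copy of part of this group lies on the left arm of XIV, where SNO2, SNZ2, THI12 and AAD14 hold ranks 6 to 9. In double null cells they were at 0.64, 0.68, 1.48 and 0.47. They form a run there, so all were called higher by definition, beside 35.3% of all ORFs. The next ORF inward, RPD3, which codes for a histone deacetylase, was at -0.00067 ± 0.029 (adjusted p = 0.985). The right arm of X carries THI11 and AAD10 at ranks 7 and 8, within a run from YJR157W to YJR149W that rose in double null cells and ended at BAT2, at rank 15, which fell by 1.14. Members of these families on different arms resemble each other in sequence, and whether the probes tell them apart was not tested.

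On the right arm of I, the 9 ORFs from YAR068W at rank 6 to YAR047C at rank 14 form a run in dot4 null cells. All were thus called higher there by definition, at 0.19 to 0.64, including the flocculin gene FLO1 at 0.28. Of all ORFs, 29.9% were called higher in dot4 null cells and 30% in ubp8 null cells. Whether the probes of this stretch tell related copies apart was not tested. YAR053W was the highest of the 9 ORFs in all 3 genotypes, at 0.64 ± 0.068, 0.58 ± 0.068 and 0.98 ± 0.068. In ubp8 null cells only YAR068W, YAR053W and FLO1 of these 9 were called higher, YAR064W was called lower, at -0.089 ± 0.035 (adjusted p = 0.0494), and YAR060C was at 0.011 ± 0.039 (adjusted p = 0.823) beside 0.40 ± 0.039 (adjusted p = 9.65e-06) in dot4 null cells, a difference of 0.39 ± 0.056 (adjusted p = 0.000161).

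**Figure D4:**
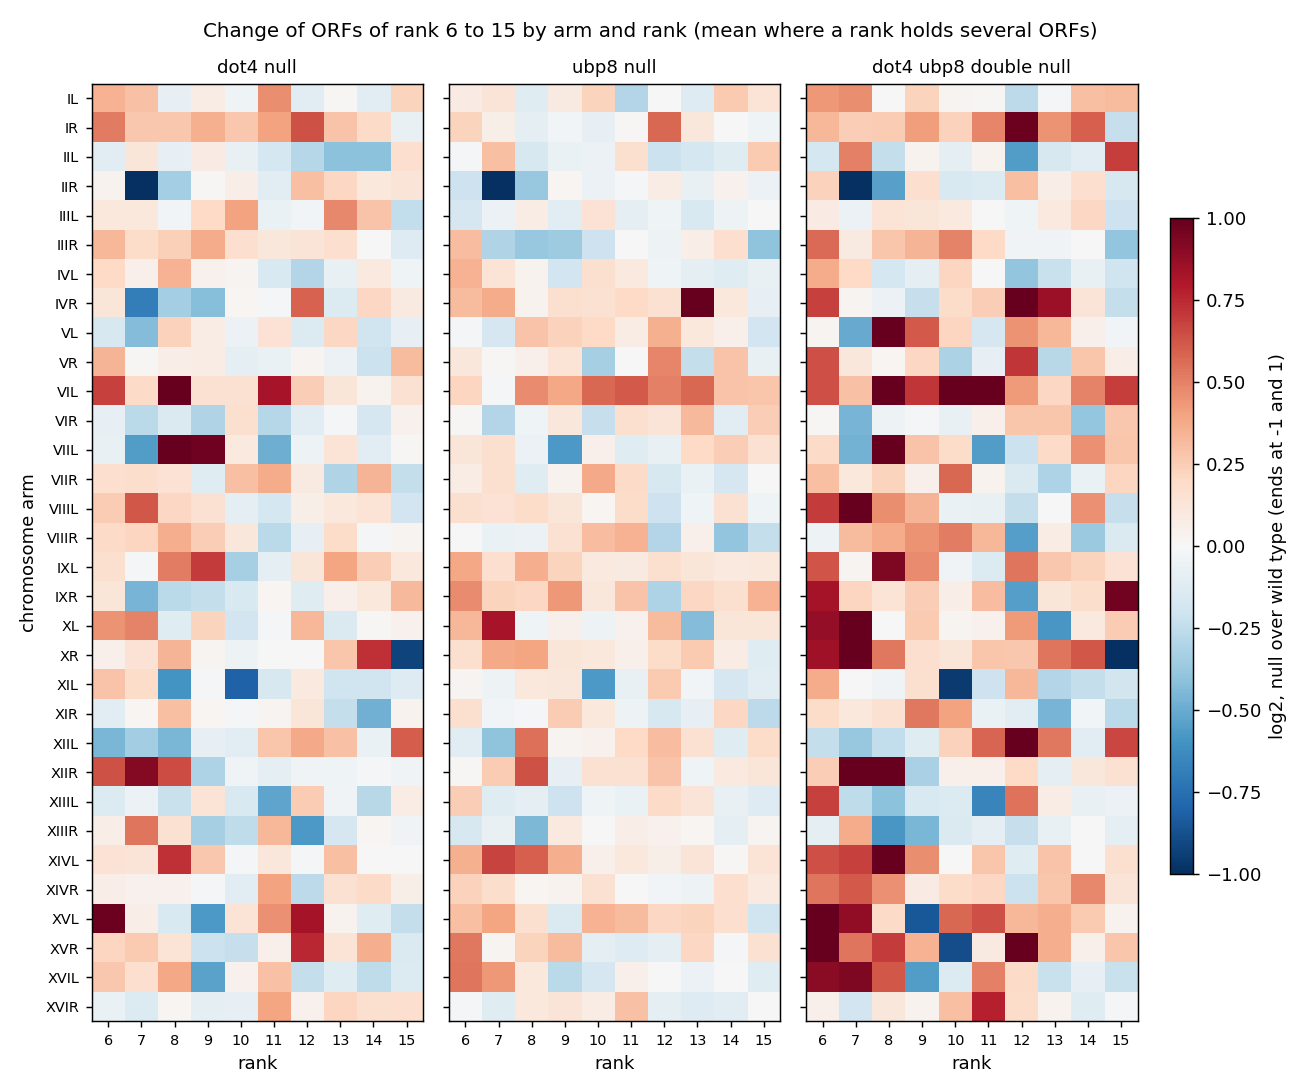
Log2 ratio of null over wild type at ranks 6 to 15 of each chromosome arm in the 3 genotypes, on a colour scale that ends at -1 and 1. Red marks higher and blue lower values; rows of red on the left arm of VI and the right arms of I and X are the long runs of double null cells.

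Vitamin genes had the highest median of the lists in double null cells. For the list counts here and below, 29.9%, 30% and 35.3% of all ORFs were called higher in dot4, ubp8 and double null cells. The shares of all ORFs called lower were 32.1%, 28.7% and 35.2%. The list of vitamin B1 and B6 genes has 7 ORFs here: THI5, THI11 and THI12, nearly identical copies that make the pyrimidine part of thiamine, and SNZ2, SNZ3, SNO2 and SNO3, which code for the enzyme pair of vitamin B6 synthesis. Of these 6 were called higher in dot4 null cells, 7 in ubp8 null cells and 7 in double null cells, none was called lower, and their medians were 0.152, 0.572 and 0.996. All 7 were at least 1.5-fold higher in double null cells. The 15 genes of the list at other positions had 8, 9 and 10 called higher and 2, 1 and 2 lower, with medians of 0.101, 0.128 and 0.302.

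THI5 (YFL058W, VIL, rank 11) had dot4 null values of 0.87, 0.74 and 0.62 on channel 2 arrays and 1.05, 0.89 and 0.78 on channel 1 arrays. Its ubp8 null values were 0.65, 0.44 and 0.21 on channel 2 arrays and 0.83, 0.76 and 0.79 on channel 1 arrays, and its double null values 1.63, 1.502 and 1.37 on channel 2 arrays and 1.85, 1.58 and 1.76 on channel 1 arrays. The double null arrays all lay above every array of the single nulls, whose ranges overlapped. The fitted values were 0.83 ± 0.057 (adjusted p = 8.87e-07), 0.62 ± 0.057 (adjusted p = 1.36e-05) and 1.62 ± 0.057 (adjusted p = 3.09e-09), and the difference between the double null and the sum of the single nulls was not called (0.17 ± 0.098 with adjusted p = 0.232).

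SNZ3 (YFL059W, VIL, rank 10) separated the 3 genotypes, with arrays from 0.074 to 0.20 (median 0.18) in dot4 null cells, 0.43 to 0.70 (median 0.59) in ubp8 null cells and 0.97 to 1.17 (median 1.08) in double null cells. No array of 1 genotype overlapped those of another. Its double null value exceeded the sum of the single nulls by 0.35 ± 0.045 (adjusted p = 0.000757), as did that of THI11, by 0.47 ± 0.091 (adjusted p = 0.00631). SNZ2 was at 0.68 ± 0.18 (adjusted p = 0.00871) in ubp8 null cells, where 1 of its set means was missing and the fit used the other sets, and this call was lost without set 1.

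Genes for minor sugars contributed 14 ORFs: HXT8, HXT9, HXT11, HXT12, HXT13 and HXT17, members of the hexose transporter family, the isomaltase genes IMA1, IMA2, IMA3 and IMA5, the maltose locus genes MAL11, MAL13 and MAL33, and STL1, a glycerol transporter gene. In dot4 null cells 7 were called higher and 1 lower, in ubp8 null cells 9 and 1, and in double null cells 12 and 0, of which 5 were at least 1.5-fold higher. Their medians were 0.141, 0.230 and 0.554, beside 0.130, 0.196 and 0.504 for the 14 genes of the list at other positions.

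HXT12 (YIL170W, IXL, rank 8) had the highest dot4 and double null values of these 14. It rose by 0.51 ± 0.034 (adjusted p = 7.6e-07), 0.37 ± 0.034 (adjusted p = 1.47e-05) and 0.93 ± 0.034 (adjusted p = 4.39e-09), with double null arrays from 0.85 to 1.01 (median 0.94). HXT9 and HXT11 were close to it, at 0.45 and 0.46 in dot4 null cells and 0.88 and 0.64 in double null cells. IMA3 rose by 0.38 ± 0.029 (adjusted p = 4.59e-06) in ubp8 null cells and by 0.16 ± 0.029 (adjusted p = 0.000732) in dot4 null cells, a difference of -0.22 ± 0.041 (adjusted p = 0.000867). MAL13, of the maltose permease locus on VIIR, was the decrease in dot4 null cells, at -0.12 ± 0.035 (adjusted p = 0.00998). MAL33, which codes for a maltose activator, was lower in ubp8 null cells, at -0.21 ± 0.032 (adjusted p = 0.000281), at 0.031 ± 0.032 (adjusted p = 0.408) in dot4 null cells, and higher in double null cells, at 0.23 ± 0.032 (adjusted p = 5.81e-05). With the mutant RNA in channel 1 alone its ubp8 null value was -0.081 and was not called. HXT8 was called in none, at -0.022 ± 0.07 (adjusted p = 0.797), 0.041 ± 0.07 (adjusted p = 0.631) and 0.043 ± 0.07 (adjusted p = 0.598).

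The aryl alcohol dehydrogenase family, named for its likeness to a fungal enzyme, had 4 ORFs at these ranks by gene symbol, AAD4, AAD6, AAD10 and AAD14. ORFs under systematic names, such as YFL057C beside AAD6, were not matched to the list. All 4 matched ORFs were called higher in each genotype. Their medians were 0.234, 0.378 and 0.418 in dot4, ubp8 and double null cells. Of the 2 other members of the list found by symbol, 1 was called lower in dot4 null cells and 1 higher in double null cells. The medians of these 2 were -0.025, 0.0013 and 0.069 in the 3 genotypes. AAD10 (YJR155W, XR, rank 8) was at 0.34 ± 0.025 (adjusted p = 1.47e-06), 0.40 ± 0.025 (adjusted p = 1.96e-06) and 0.53 ± 0.025 (adjusted p = 2.67e-08), and its double null value minus the sum of the single nulls was -0.21 ± 0.044 (adjusted p = 0.00911). AAD6 was at 0.57 in ubp8 null cells and 0.20 in double null cells, a change of -0.37 ± 0.06 (adjusted p = 0.000698), and its double null value minus the sum was -0.49 ± 0.073 (adjusted p = 0.00163). Its dot4 null call, at 0.12 ± 0.042 (adjusted p = 0.0258), was lost without set 1 and without set 2.

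Metal uptake genes were called in both directions. The list has 12 ORFs at these ranks, of which 6 were called higher and 2 lower in dot4 null cells, 3 and 4 in ubp8 null cells, and 7 and 2 in double null cells, with medians of 0.183, -0.056 and 0.188. The 16 at other positions had 4 and 6, 4 and 6, and 6 and 7, with medians of -0.054, -0.076 and -0.062.

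ADH4 and ZRT1 are neighbours at ranks 8 and 9 of the left arm of VII. ADH4 codes for an alcohol dehydrogenase known to be induced when zinc is scarce, and ZRT1 for the high affinity zinc transporter. MNT2, for a mannosyltransferase, is the next ORF outward. Its dot4 null value of -0.56 ± 0.042 joins -0.91, -1.48 and -1.47 on channel 2 arrays to -0.27, 0.29 and 0.48 on channel 1 arrays. Its sign thus turned with the orientation in every set but set 1.

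ADH4 (YGL256W, VIIL, rank 8) had dot4 null values of 3.48, 3.005 and 2.60 on channel 2 arrays and 3.71, 3.71 and 3.64 on channel 1 arrays, and was thus far above 0 on every array, a 10.2-fold increase (3.36 ± 0.074 with adjusted p = 6.49e-10). Its ubp8 null values were -0.16, -0.28 and -0.51 on channel 2 arrays and 0.33, 0.15 and 0.099 on channel 1 arrays, with opposite signs in the orientations, and it was not called (-0.062 ± 0.074 with adjusted p = 0.49). Its double null values were 2.16, 2.15 and 1.65 on channel 2 arrays and 1.64, 1.73 and 2.02 on channel 1 arrays, above every ubp8 null array and below every dot4 null array.

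ADH4 rose 3.71-fold in double null cells (1.89 ± 0.074 with adjusted p = 6.93e-09), less than in dot4 null cells by 1.46 on the log2 scale (adjusted p = 3.01e-06). Its double null value minus the sum of the single nulls was -1.40 ± 0.13 (adjusted p = 0.000125), the largest shortfall among the ORFs of ranks 6 to 15. With the mutant RNA in channel 2 alone this shortfall was -0.72 and was not called.

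ZRT1 (YGL255W, VIIL, rank 9) was higher in dot4 null cells on all arrays, from 0.82 to 1.14 (median 0.97), and lower in ubp8 null cells on all arrays, from -0.71 to -0.42 (median -0.60). The double null lay between them, from 0.17 to 0.38 (median 0.27), with no overlap with either. The fitted values were 0.97 ± 0.037 (adjusted p = 8.96e-09), -0.58 ± 0.037 (adjusted p = 1.96e-06) and 0.28 ± 0.037 (adjusted p = 3.99e-05), and the single nulls differed by 1.55 ± 0.052 (adjusted p = 2.59e-08). The difference of the double null from their sum was not called (-0.11 ± 0.064 with adjusted p = 0.242).

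The iron genes FIT1, FIT2 and FIT3 code for mannoproteins of the cell wall that help to retain iron carried by siderophores. FIT3 (YOR383C, XVR, rank 12) had dot4 null values of 0.67, 0.87 and 1.21 on channel 2 arrays and 0.39, 0.53 and 0.86 on channel 1 arrays, ubp8 null values of -0.47, 0.13 and -0.097 on channel 2 arrays and -0.50, 0.14 and 0.25 on channel 1 arrays and double null values of 0.85, 1.45 and 1.41 on channel 2 arrays and 1.11, 1.59 and 1.49 on channel 1 arrays. The sets differed more than for most ORFs, with set 1 lowest in each genotype, and the standard error was 0.13. FIT3 was called in dot4 null cells (0.75 ± 0.13 with adjusted p = 0.000568) and double null cells (1.31 ± 0.13 with adjusted p = 5.77e-06), not in ubp8 null cells (-0.092 ± 0.13 with adjusted p = 0.574). FIT1, on the right arm of IV, was at 0.59 ± 0.079 (adjusted p = 8.12e-05), 0.15 ± 0.079 (adjusted p = 0.121) and 1.06 ± 0.079 (adjusted p = 5.97e-07), and FIT2, next to FIT3, at 0.14 ± 0.072 (adjusted p = 0.123), 0.21 ± 0.072 (adjusted p = 0.0288) and 0.36 ± 0.072 (adjusted p = 0.001), of which the ubp8 null call was lost without set 1 and without set 2.

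Not all siderophore genes rose. ENB1, which codes for the enterobactin transporter, fell by 0.57, 0.14 and 0.84 in dot4, ubp8 and double null cells (adjusted p = 7.32e-08, 0.00142 and 2.1e-09). SIT1, another siderophore transporter gene, rose by 0.21, 0.10 and 0.33. FET4, for a low affinity iron transporter, fell by 0.45 in ubp8 null cells (adjusted p = 0.00131) and by 0.58 in double null cells (adjusted p = 0.000113), and was at 0.16 ± 0.087 (adjusted p = 0.142) in dot4 null cells. FRE2 and FRE3, which code for ferric reductases, rose in dot4 null cells by 0.29 ± 0.047 (adjusted p = 0.00034) and 0.36 ± 0.038 (adjusted p = 1.5e-05). With the mutant RNA in channel 2 alone the dot4 null value of FRE2 was 0.088 and was not called. In double null cells FRE2 rose by 0.37 ± 0.047 (adjusted p = 3.43e-05) while FRE3 was at 0.051 ± 0.038 (adjusted p = 0.244).

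**Figure D5:**
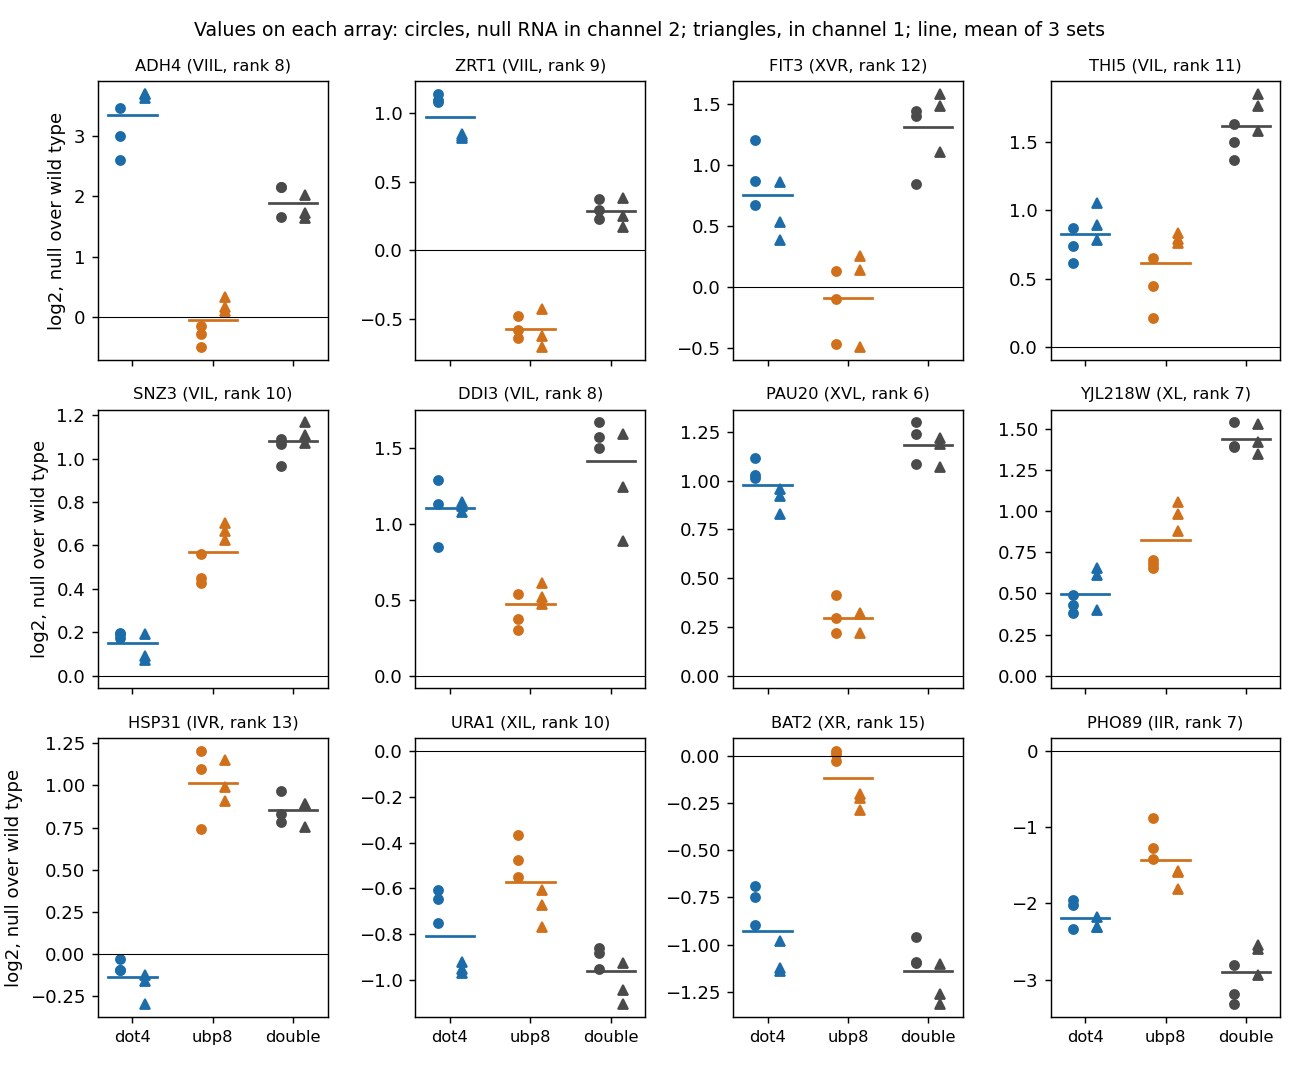
Log2 ratio of null over wild type of 12 ORFs of ranks 6 to 15 on each array, with the mutant RNA in channel 2 (circles) or channel 1 (triangles), and the fitted mean as a line, in the dot4 (blue), ubp8 (orange) and double null (grey). The panels have different scales; ADH4 lies between 2.60 and 3.71 in dot4 null cells, and HSP31 is high in the ubp8 and double null arrays alone.

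Of the 9 ORFs at these ranks in the 2 lists of cell wall and adhesion genes, none was called lower in any genotype. The seripauperin and anaerobic wall list has 4 ORFs here, PAU4, PAU20, DAN1 and DAN4, and 3, 4 and 4 were called higher in dot4, ubp8 and double null cells, with medians of 0.598, 0.254 and 0.839. The 25 at other positions had 21, 22 and 21 called higher, with medians of 0.817, 0.224 and 1.083. PAU proteins are short serine-poor wall proteins known for their induction without oxygen, and their genes are too alike for single copies to be told apart with certainty.

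PAU20 (YOL161C, XVL, rank 6) ranged from 0.83 to 1.11 (median 0.98) in dot4 null cells, 0.22 to 0.41 (median 0.31) in ubp8 null cells and 1.07 to 1.30 (median 1.20) in double null cells. The ubp8 null arrays did not overlap those of the other genotypes, and the other ranges overlapped. The fitted values were 0.98 ± 0.034 (adjusted p = 6.24e-09), 0.30 ± 0.034 (adjusted p = 4.93e-05) and 1.18 ± 0.034 (adjusted p = 8.8e-10). PAU4 had 0.92, 0.25 and 1.14. DAN1, a mannoprotein gene, was at 0.28 ± 0.066 (adjusted p = 0.00379) and 0.26 ± 0.066 (adjusted p = 0.00686) in the single nulls and lost its sign in ubp8 null cells with the mutant RNA in channel 2 alone, where it was at -0.034, and the ubp8 null call was lost without set 1, at 0.15.

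The adhesion list has 5 ORFs at these ranks: the flocculin genes FLO1, FLO5 and FLO9, whose products bind cells to each other, HPF1, for a mannoprotein, and YPS6, for a putative aspartic protease at the cell surface. All 5 were called higher in each genotype, with medians of 0.283, 0.153 and 0.450. The ubp8 null call of FLO5 was lost without set 1 and without set 2, at 0.12 and 0.15, that of FLO9 without set 3, at 0.12, and both without centring. The 13 at other positions had 6, 2 and 7 called higher and 3, 3 and 3 lower. The flocculins lie on 3 different arms and had close values, 0.45, 0.45 and 0.47 in double null cells, and whether their probes share transcripts was not tested.

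HPF1 (YOL155C, XVL, rank 12) showed the orientation plainly. Its dot4 null values were 1.08, 0.97 and 1.16 on channel 2 arrays and 0.52, 0.50 and 0.74 on channel 1 arrays, all above 0, and its ubp8 null values 0.49, 0.49 and 0.32 on channel 2 arrays and -0.011, -0.092 and 0.036 on channel 1 arrays, above 0 in channel 2 and around 0 in channel 1. The fit called it in both (0.83 ± 0.046 with adjusted p = 1.71e-07 and 0.21 ± 0.046 with adjusted p = 0.00322), and with channel 1 alone the ubp8 null value was -0.022. In double null cells it was at 0.33 ± 0.046 (adjusted p = 6.96e-05), lower than the sum of the single nulls by 0.71 (adjusted p = 0.000431). YPS6 went the other way among the genotypes, at 0.12 ± 0.048, 0.47 ± 0.048 and 0.83 ± 0.048.

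The phosphate list held the deepest decrease. It has 3 ORFs here, PHO89, for a sodium phosphate cotransporter, PHO84, for the high affinity proton phosphate transporter, and GIT1, for a glycerophosphoinositol permease. PHO89 and PHO84 were called lower and GIT1 higher in dot4 and double null cells, and PHO89 and GIT1 were called lower in ubp8 null cells; of these, the GIT1 calls in both single nulls depended on single sets. The 21 phosphate genes at other positions had 3 called higher and 15 lower in dot4 null cells, 2 and 16 in ubp8 null cells, and 2 and 17 in double null cells.

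PHO89 (YBR296C, IIR, rank 7) was lower on every array, with dot4 null values of -2.33, -2.02 and -1.96 on channel 2 arrays and -2.18, -2.31 and -2.31 on channel 1 arrays, ubp8 null values of -1.42, -0.88 and -1.27 on channel 2 arrays and -1.81, -1.58 and -1.58 on channel 1 arrays and double null values of -3.32, -3.18 and -2.80 on channel 2 arrays and -2.55, -2.60 and -2.94 on channel 1 arrays. The 3 genotypes did not overlap. It fell 4.54-fold, 2.68-fold and 7.47-fold (-2.18 ± 0.056 with adjusted p = 1.13e-09, -1.42 ± 0.056 with adjusted p = 1.25e-07 and -2.90 ± 0.056 with adjusted p = 1.44e-10), and its double null value exceeded the sum of the single nulls by 0.71 ± 0.096 (adjusted p = 0.00104), which was 0.19 and not called with the mutant RNA in channel 2 alone.

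PHO84 (YML123C, XIIIL, rank 11) fell by 0.52 in dot4 null cells and 0.66 in double null cells. In ubp8 null cells its values were 0.12, 0.14 and 0.18 on channel 2 arrays and -0.23, -0.36 and -0.25 on channel 1 arrays, with the sign set by the orientation, and it was not called (-0.069 ± 0.039 with adjusted p = 0.153). GIT1 (YCR098C, IIIR, rank 10) was at 0.17 ± 0.056 (adjusted p = 0.0234), -0.20 ± 0.056 (adjusted p = 0.00996) and 0.50 ± 0.056 (adjusted p = 1.35e-05), and with the mutant RNA in channel 2 alone its dot4 null value was -0.21. Its dot4 null call was lost without set 1, at 0.079. Its ubp8 null call was lost without set 2, at -0.19, without set 3, at -0.15, and with channel 1 alone, at -0.013. With all 18 arrays fitted, a dye term and sets as a random block, both were lost (adjusted p = 0.133 and 0.0735 by limma).

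Other named decreases lay outside the lists. BAT2 codes for the cytosolic branched chain aminotransferase, URA1 for dihydroorotate dehydrogenase of pyrimidine synthesis, and SAM3 and MMP1 for permeases of S-adenosylmethionine and S-methylmethionine. BAT2 (YJR148W, XR, rank 15) had dot4 null values from -1.14 to -0.69 (median -0.94) and double null values from -1.31 to -0.96 (median -1.10), without overlap with the ubp8 null values, from -0.28 to 0.026 (median -0.12). It fell by 0.93, 0.12 and 1.14 in dot4, ubp8 and double null cells (adjusted p = 7.36e-09, 0.0125 and 1.07e-09). The single nulls differed by -0.81 ± 0.048 (adjusted p = 6.71e-07).

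URA1 (YKL216W, XIL, rank 10) was lower on every array of the 3 genotypes. Values ran from -0.97 to -0.60 (median -0.84) in dot4 null cells, -0.77 to -0.37 (median -0.58) in ubp8 null cells and -1.10 to -0.86 (median -0.94) in double null cells. The dot4 null arrays overlapped both others, which did not overlap each other. It fell by 0.81, 0.57 and 0.96, and the double null value was above the sum by 0.42 ± 0.064 (adjusted p = 0.00195). SAM3 fell by 0.54, 0.27 and 0.56, and MMP1 by 0.35, 0.40 and 0.38.

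FDC1 and SRY1 fell in dot4 null cells and were not called in double null cells. FDC1 codes for a decarboxylase of aromatic acids and was at -0.69 ± 0.035 (adjusted p = 8.82e-08) in dot4 null cells, 0.37 ± 0.035 (adjusted p = 1.51e-05) in ubp8 null cells and 0.029 ± 0.035 (adjusted p = 0.48) in double null cells. SRY1 codes for a hydroxyaspartate dehydratase and was at -0.59 ± 0.031 (adjusted p = 1.08e-07), 0.11 ± 0.031 (adjusted p = 0.0139) and -0.038 ± 0.031 (adjusted p = 0.298). Both differed between double null cells and dot4 null cells (0.72 ± 0.05 with adjusted p = 2.37e-06 and 0.56 ± 0.044 with adjusted p = 4.77e-06). In ubp8 null cells the 10 largest decreases were, in order, PHO89, ZRT1, URA1, FET4, OPT1, YHR214C-B, CDC39, MMP1, YBL101W-B and SKN7. Of these, OPT1, for an oligopeptide transporter, was at -0.43 ± 0.034 (adjusted p = 5.69e-06), CDC39, for the scaffold of the CCR4-NOT complex, at -0.41 ± 0.036 (adjusted p = 1.17e-05), and SKN7, for a transcription factor of the oxidative stress response, at -0.39 ± 0.041 (adjusted p = 2.86e-05).

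Of the stress list, HSP31 separated the single nulls. HSP31, for a methylglyoxalase and chaperone of the stress response, had ubp8 null values of 1.21, 1.09 and 0.74 on channel 2 arrays and 1.15, 0.99 and 0.91 on channel 1 arrays and double null values from 0.76 to 0.97 (median 0.86). Its dot4 null values, from -0.30 to -0.028 (median -0.11), were all below 0 and overlapped neither. It rose by 1.02 ± 0.057 (adjusted p = 1.15e-06) and 0.85 ± 0.057 (adjusted p = 2.53e-07) in ubp8 and double null cells and was at -0.13 ± 0.057 (adjusted p = 0.0591) in dot4 null cells, which left the single nulls apart by -1.15 ± 0.08 (adjusted p = 1.5e-06). MSC1, the other gene of the stress list here, was at -0.13 ± 0.045 (adjusted p = 0.0236), 0.24 ± 0.045 (adjusted p = 0.00101) and 0.68 ± 0.045 (adjusted p = 2.44e-07), and its dot4 null sign turned with the mutant RNA in channel 1 alone, to 0.065, and its call was lost without set 2, at -0.16, and without set 3, at -0.085. The 40 stress genes at other positions had 12 called higher and 18 lower in dot4 null cells, 29 and 2 in ubp8 null cells, and 31 and 3 in double null cells.

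YJL218W (XL, rank 7), named by its locus, had arrays from 0.38 to 0.65 (median 0.46) in dot4 null cells, 0.65 to 1.06 (median 0.79) in ubp8 null cells and 1.34 to 1.54 (median 1.41) in double null cells. The double null arrays lay above all others, and the dot4 and ubp8 null arrays overlapped at their edges. It rose by 0.49, 0.82 and 1.44, and YLR460C by 0.65, 0.63 and 1.22. GTT2, for a glutathione transferase, had opposite signs in the single nulls: it was higher in ubp8 null cells, at 0.55 ± 0.04 (adjusted p = 3.59e-06), and lower in dot4 null cells, at -0.46 ± 0.04 (adjusted p = 4.43e-06), and in double null cells, at -0.25 ± 0.04 (adjusted p = 0.000189).

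The glucose repressed carbon list has 6 ORFs here, of which 3 were called higher and 1 lower in dot4 null cells, 2 and 0 in ubp8 null cells, and 5 and 1 in double null cells. Beside ADH4, FDH1, for formate dehydrogenase, was at 0.26 ± 0.026 (adjusted p = 1.03e-05), 0.027 ± 0.026 (adjusted p = 0.384) and 0.54 ± 0.026 (adjusted p = 2.64e-08), and ACS1, for acetyl-CoA synthetase, at 0.22 ± 0.066, 0.14 ± 0.066 and 0.31 ± 0.066, of which the ubp8 null value was not called. The dot4 null call of ACS1 was lost without set 1, at 0.095, and with channel 2 alone, at 0.30. That of FDH1 was lost with channel 2 alone, at 0.13. PCK1, for the gluconeogenic carboxykinase, was called in double null cells (0.40 ± 0.045 with adjusted p = 1.41e-05) and not in dot4 null cells (-0.015 ± 0.045 with adjusted p = 0.797) or ubp8 null cells (0.11 ± 0.045 with adjusted p = 0.0666). JEN1, for the lactate transporter, rose by 0.16 ± 0.028 (adjusted p = 0.000356) in double null cells. ADH6, for a cinnamyl alcohol dehydrogenase, was the decrease, at -0.33 ± 0.035 (adjusted p = 1.53e-05) and -0.46 ± 0.035 (adjusted p = 6.76e-07), and it was called higher in ubp8 null cells (0.096 ± 0.035 with adjusted p = 0.0346). That ubp8 null call was lost without set 1 and without set 2, at 0.071 and 0.082, without centring, with the genotype fitted alone, and with channel 1 alone, at 0.028.

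BIO2, for biotin synthase, is the biotin gene at these ranks. It rose by 0.37 ± 0.037 (adjusted p = 1.16e-05) in dot4 null cells and 0.19 ± 0.037 (adjusted p = 0.00136) in ubp8 null cells, and was at 0.034 ± 0.037 (adjusted p = 0.434) in double null cells, where its value minus the sum of the single nulls was -0.53 ± 0.064 (adjusted p = 0.000637).

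The silent mating loci lie at these ranks on chromosome III, and their changes were small. HMLALPHA2 and HMLALPHA1 hold ranks 7 and 8 of the left arm, and HMRA1 and HMRA2 ranks 11 and 12 of the right arm. They are silent copies of the mating type genes and share sequence with the expressed MAT locus, so their probes may read MAT transcripts. In dot4 null cells 3 of the 4 were called higher, in ubp8 null cells 0 and in double null cells 2. With limma's unadjusted p under 0.05 the count was also 0 in ubp8 null cells, with HMLALPHA1 at 0.076 ± 0.054 (adjusted p = 0.245) and HMLALPHA2 at -0.056 ± 0.026 (adjusted p = 0.0899).

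HMRA2 was at 0.13 ± 0.033 (adjusted p = 0.0062) in dot4 null cells, HMRA1 at 0.11 ± 0.036 (adjusted p = 0.0233) and HMLALPHA2 at 0.10 ± 0.026 (adjusted p = 0.00536). HMRA1 was the highest of them in double null cells, at 0.27 ± 0.036 (adjusted p = 4.83e-05), while HMLALPHA2 there was at -0.056 ± 0.026 (adjusted p = 0.0798). All 3 dot4 null calls were lost when set 2 was left out, at 0.11, 0.070 and 0.084 for HMRA2, HMRA1 and HMLALPHA2. The other double null call was HMLALPHA1, at 0.14 ± 0.054 (adjusted p = 0.0401), which was lost without set 1 and without set 2 and turned to -0.036 with the mutant RNA in channel 2 alone. Around HMR the right arm of III split the single nulls: YCR099C, at rank 9, was at 0.37 ± 0.027 (adjusted p = 1.15e-06) in dot4 null cells and -0.36 ± 0.027 (adjusted p = 4.31e-06) in ubp8 null cells, a difference of 0.73 ± 0.038 (adjusted p = 3.55e-07).

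The COS genes, which code for membrane proteins that act in endosomal sorting, have 2 ORFs here. COS4 and COS9 were called higher in dot4 null cells (0.19 ± 0.036 with adjusted p = 0.000853 and 0.18 ± 0.038 with adjusted p = 0.00188), neither was called in ubp8 null cells (0 at an unadjusted p under 0.05), and COS4 was called in double null cells (0.29 ± 0.036 with adjusted p = 2.73e-05). With the mutant RNA in channel 1 alone the dot4 null values were 0.025 and 0.012, and neither was called. Among genes for silencing factors, SIR1, which helps to found silencing at the mating loci, was at -0.11 ± 0.042 (adjusted p = 0.0413), 0.16 ± 0.042 (adjusted p = 0.00785) and 0.18 ± 0.042 (adjusted p = 0.0021), and RIF2, for a telomere length regulator, at -0.037 ± 0.034 (adjusted p = 0.372), 0.12 ± 0.034 (adjusted p = 0.0124) and 0.15 ± 0.034 (adjusted p = 0.00193). The dot4 null value of SIR1 turned to 0.095 with the mutant RNA in channel 1 alone, and its call was lost without set 2, at -0.049, without set 3, at -0.11, and in 4 other settings, among them without centring. The ubp8 null call of RIF2 was lost without set 1 and without set 2, at 0.10 and 0.14, without centring, and with channel 2 alone, at 0.0090. The 31 other genes of this list, which include the deleted ones, had 9 called higher and 7 lower, 8 and 9, and 9 and 10.

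The 266 ORFs of ranks 6 to 15 that matched none of the lists by symbol had 98 called higher and 76 lower in dot4 null cells. They had 104 and 61 in ubp8 null cells, and 131 and 76 in double null cells, with medians of 0.020, 0.046 and 0.082. Of all ORFs, 29.9% and 32.1%, 30% and 28.7%, and 35.3% and 35.2% were called higher and lower in the same order. ORFs of transposable elements were among the decreases. YBL101W-A and YBL101W-B, which share rank 12 on the left arm of II, fell in double null cells by 0.93 and 0.89, and YHR214C-B, at rank 6 of the right arm of VIII, by 0.84. Such elements exist in many copies, and the orientations disagreed for them. The double null value of YHR214C-B was -0.0030 with the mutant RNA in channel 2 alone, and that of YBL101W-B was 0.059. The ubp8 null value of YHR214C-B was -0.41 ± 0.071 by the fit and 0.31 with the mutant RNA in channel 2 alone, and that of YBL101W-B -0.40 ± 0.043 and 0.39.

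The single nulls differed from each other at many ORFs of ranks 6 to 15. With dot4 null set against ubp8 null cells, 100 ORFs were called higher and 109 lower, or 30.1% and 32.8%, beside 27.9% and 30.2% of all ORFs, shares close to the background. Without centring the counts were 93 and 30. The largest differences were ADH4, ZRT1, FIT3, ECM1 and YCR099C on the side of dot4 null cells and HSP31, FDC1, GTT2, BAT2 and PHO89 on the side of ubp8 null cells. ECM1, which has a part in export of ribosome precursors, rose in dot4 null cells (0.46 ± 0.037 with adjusted p = 2.32e-06) and fell in ubp8 null cells (-0.29 ± 0.037 with adjusted p = 9.18e-05), a difference of 0.76 ± 0.052 (adjusted p = 1.41e-06).

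Double null cells were higher than dot4 null cells at 142 ORFs and lower at 76, or 42.8% and 22.9%, beside 29% and 29.2% of all ORFs. Without centring the counts were 64 and 57, which evens the balance. HSP31, YJL218W, SNZ3, THI11 and DSF1 led the increases, by 0.99, 0.94, 0.93, 0.85 and 0.82. DSF1 codes for a putative mannitol dehydrogenase, and it rose from 0.23 and 0.29 in the single nulls to 1.06. ADH4, FET4, PHO89, ZRT1 and YBL101W-B led the decreases.

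Against ubp8 null cells, double null cells were higher at 123 ORFs and lower at 51, or 37.0% and 15.4%, beside 23.2% and 21% of all ORFs, and without centring at 79 and 20. ADH4, FIT3, THI5, DFP4 and DDI3 led, by 1.96, 1.41, 0.9995, 0.97 and 0.94. PHO89, BAT2, GTT2, YOR385W and ENB1 were the largest decreases, by 1.48, 1.02, 0.80, 0.80 and 0.70.

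Double null cells departed from the sum of the single nulls at fewer ORFs. Values were above the sum at 58 ORFs and below it at 36, or 17.5% and 10.8%, beside 11.9% and 8.41% of all ORFs. The wild type enters each ratio, so a wild type deviation common to the arrays would not cancel in this contrast. Its share in these departures was not tested. Above the sum stood PHO89, YJR157W, MSC1, DSF1 and GIT1, by 0.71 ± 0.096, 0.63 ± 0.064, 0.57 ± 0.078, 0.53 ± 0.07 and 0.53 ± 0.097. For PHO89 this means a decrease smaller than the sum, and for GIT1 the sign turned, to -0.11, with the mutant RNA in channel 1 alone and the call was lost without set 2, at 0.46. DSF1 was at 0.14 and not called in that orientation. Below the sum stood ADH4, HPF1, DIA1, YDL241W and BIO2, and the call of DIA1 was lost whichever set was left out. Without centring 6 were above and 16 below, and with 1 set left out the counts ran from 13 to 51 above and from 10 to 33 below, so the counts depend on both.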

How the data were processed

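Total RNA of 3 null strains was set against wild type RNA on 18 arrays. Per the file headers, the deposited table holds 1 log2 ratio per ORF and array, as made by the authors; how background was corrected and ratios were normalized is not given in the sources used here. The value 16.61, which occurs 2 times, and 9 empty values were treated as missing, and 6195 of 6205 ORFs had all set means.

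Arrays were centred on their median, the sign was turned where the mutant RNA was in channel 1, and the 2 arrays of a set were averaged. The 9 set means were fitted with limma 3.58.1 in R 4.3.3 (genotype means against 0 and 4 contrasts), with Benjamini-Hochberg adjustment over all ORFs within a comparison, and the script was tested on simulated data. Precision is limited by how many arrays there were, and depth has no meaning for ratios. The deviations of same-numbered sets had 9 correlations from -0.26 to 0.27, and the numbers were not used as pairs. Those of dot4 null cells with the other genotypes were all above 0, from 0.048 to 0.27. Those of ubp8 null with double null cells were 0.089, -0.11 and -0.26. Symbols come from RefSeq, R64, whose coordinates were not used since the table names no build; sequences were not analysed here.

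The members and gene lists were chosen with earlier results of these data known. Named ORFs are the 10 called ORFs with the largest change in each direction and genotype and all 3 set means on that side of 0, the 5 in each direction of a contrast, up to 4 leading called members of each list, and the 3 with the largest change on an arm with the highest or lowest median. Others given beside them, for their place or to complete a list (such as RPD3, AGP3, AQY3, MAL13 and HXT8), were chosen after their values were seen. Other centring, scaling, orientation, fits, member rules and left-out sets were tried.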

Additional observations from a re-analysis of the deposited data

Results flagged for a closer look

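Among 151 sets of 6 array values of a named ORF in a genotype, 6 had 1 array far from the other 5 by Dixon's criterion, where chance marks about 1 in 20. YJR149W was at 0.135 in dot4 null cells on the set 3 array with the mutant RNA in channel 2, while the others ran from 0.803 to 0.959. ACS1 was at 0.794 in dot4 null cells on the set 1 array with the mutant RNA in channel 2, against 0.0090 to 0.175. SKN7 was at -0.0030 in ubp8 null cells on the set 3 array with the mutant RNA in channel 2, against -0.567 to -0.367. YLR460C was at 1.02 in double null cells on the set 3 array with the mutant RNA in channel 2, against 1.22 to 1.29. PCK1 was at 0.018 in double null cells on the set 1 array with the mutant RNA in channel 1, against 0.361 to 0.529. SIR1 was at 0.414 in double null cells on the set 3 array with the mutant RNA in channel 1, against 0.110 to 0.165.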

How the results depend on the processing

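Counts are of ORFs of ranks 6 to 15, the causes of the changes were not tested, and what moved less is given at the end. Shares of all ORFs under these settings are not given. Without centring, 33 ORFs were called lower in dot4 null cells, 72 higher and 33 lower in ubp8 null cells, and 3 of the latter at least 1.5-fold; the dot4 null against the ubp8 null gave 30 lower, the double null against the dot4 null 64 higher and against the ubp8 null 79 higher and 20 lower, and against the sum 6 and 16. When all arrays had the same spread, there were 13 and 3 ubp8 null ORFs at least 1.5-fold higher and lower, and the double null shift against ranks above 30 was 0.133. With the mutant RNA in channel 1 alone, ORFs at least 1.5-fold lower numbered 17 in dot4, 7 in ubp8 and 16 in double null cells, ubp8 null ORFs at least 1.5-fold higher 18, and the shifts were 0.112 in dot4 and 0.116 in ubp8 null cells. With it in channel 2 alone, 10 dot4 null ORFs were at least 1.5-fold lower, 80 ubp8 null ORFs were called higher, 3 and 2 at least 1.5-fold higher and lower, and the shifts were 0.024, 0.030 and 0.125. Without repeated families 11, 2 and 27 ORFs were at least 1.5-fold higher, and the shifts were 0.033, 0.038 and 0.103. With ranks counted over matched ORFs only, 6 double null ORFs were at least 1.5-fold lower, and the dot4 and double null shifts were 0.033 and 0.108.

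Leaving out 1 set at a time gave 2 to 10 ubp8 null ORFs at least 1.5-fold higher and 1 to 3 lower, 48 to 61 lower in the double null against the dot4 null, 30 to 50 lower against the ubp8 null, and 13 to 51 above and 10 to 33 below the sum. With the set number as a replicate block, the counts higher and lower were 140 and 87 in dot4, 149 and 72 in ubp8 and 181 and 79 in double null cells, and none of 188 named results changed its call.

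Signs turned with channel 1 alone for MNT2 (0.17), MSC1 (0.065) and SIR1 (0.095) in dot4 null cells, HPF1 in ubp8 null cells (-0.022) and GIT1 against the sum (-0.11). With channel 2 alone they turned for GIT1 in dot4 null cells (-0.21), YHR214C-B (0.31), YBL101W-B (0.39) and DAN1 (-0.034) in ubp8 null cells, and YBL101W-B (0.059) and HMLALPHA1 (-0.036) in double null cells. Over 13 settings, 2163 of the recomputed values of named results kept direction and call, 92 kept the direction and lost the call, and 11 reversed. Dropping ADH4, an alternative chosen after seeing the data, and dropping the double null array of the other strain number moved no count by over 1.5 times.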
